A study of Homo sapiens with 12 samples.

Results

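Maver-1 is an established human mantle cell lymphoma line, a B cell tumour, and per the labels it carries a deletion of TRAF3. The arrays described here are those of its 2 cultures whose hairpin targets MAP3K14, which encodes the kinase NIK: 4 of the 12 arrays of the series, chosen by line and hairpin. The hairpins, NIKsh#1 and NIKsh#2, were made on addition of doxycycline, and the cells that carried them had been selected with puromycin. Each culture was kept for 7 days in 0 or in 100 ng/ml doxycycline, with 1 array for either dose, so that doxycycline was compared with none within each hairpin, 2 arrays against 2. A Maver-1 culture with an inducible non-targeting control hairpin (NTC), also with 0 and 100 ng/ml for 7 days, gave 1 array each and served as a reference for induction. The remaining 6 arrays came from Z-138, a mantle cell lymphoma line with a TRAF2 nonsense change per the labels, with the same 3 hairpins, times and doses. All Maver-1 cultures shared the TRAF3 deletion, the drug selection and an inducible hairpin. None was left without a hairpin, and the untreated arrays of a culture were its own reference.

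NIK starts the alternative NF-kB pathway. In resting B cells TRAF3 and TRAF2 bring NIK to ubiquitin ligases that have it destroyed. When receptors such as CD40, the BAFF receptor or the lymphotoxin beta receptor take up the TRAF proteins, or when a TRAF gene is lost, NIK builds up and activates the kinase IKK alpha (CHUK). IKK alpha marks the precursor p100, the product of NFKB2, for cutting to p52, which pairs with RELB and enters the nucleus. Genes of adhesion, antigen presentation, homing and B cell survival are among those known to be controlled by NF-kB.

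Values are linear array signals, scaled by the authors to a common mean, and a change is log2(signal + 3) on the doxycycline array of a culture minus that on its untreated array. This scale understates the change of genes with low signal. A group value is the mean over 2 cultures ± the standard error of the limma model (n = 2 cultures throughout). Of 19775 genes with a probe set of their own, 11378 had a mean signal of at least 12.55 over the 6 Maver-1 arrays, and these were tested. Nothing in the labels gives separate transductions or repeat cultures of a hairpin, so that the p-values reflect no more than the spread among these cultures, which may be technical, and 2 pairs could not reach an exact two-sided p below 0.5.

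The arrays carried most markers of the labelled cell type. MS4A1, CD79A, CD79B, CD22 and PAX5, the 5 B cell markers measured, lay above the 12.55 limit on all 6 Maver-1 arrays, as did CCND1, the cyclin gene that defines mantle cell lymphoma, SOX11 and CD5. FCER2, also listed for mantle cell lymphoma, reached the limit on 1 array only. The 4 plasma cell markers, SDC1, PRDM1, XBP1 and IRF4, lay above it on all 6. The summed signal of 6 T cell markers was 6.2 to 15, and CD3E lay between 0.1 and 1.2. The 4 NK cell markers summed to 17.3 to 34.4, the 5 monocyte markers to 13.0 to 31.2 and the 4 fibroblast markers to 23.1 to 32.9. The 4 epithelial markers summed to 329.9, 361.5 and 388.0 in the untreated NTC, NIKsh#1 and NIKsh#2 cultures and to 232.9, 293.9 and 289.8 with doxycycline. That sum was mostly EPCAM, lower with doxycycline in all 3 cultures, NTC included, while KRT19 and CDH1 reached no more than 8.0 on any array. The 3 endothelial markers summed to 552.2 to 935.9, mostly PECAM1, with VWF and CDH5 at no more than 4.6. For ACTB the 3′ signal over the 5′ signal, a sign of RNA integrity, was 4.68 without and 4.32 with doxycycline in NIKsh#1, 3.66 and 3.80 in NIKsh#2, and 6.88 and 4.43 in NTC. The part of this ratio, which moved most in NTC, in the results against NTC was not tested. In bulk RNA of this kind, fewer cells of a type and less RNA per cell cannot be told apart.

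The targeted transcript was lower with both hairpins. MAP3K14 gave a signal of 86.9 without and 63.4 with doxycycline in NIKsh#1 and of 79.3 and 55.7 in NIKsh#2. In NTC it gave 77.2 and 132.7. The 3 untreated cultures lay within 10 units of each other, and with doxycycline both NIKsh arrays lay under every untreated array while the NTC array lay above them all. The change was -0.46 ± 0.25 over the NIKsh cultures and 0.76 in NTC. Neither the NIKsh change (adjusted p = 0.998) nor its difference from NTC (-1.22 ± 0.44, adjusted p = 0.9999) passed limma's test with Benjamini-Hochberg adjustment over the 11378 genes. TRAF3 was close to background on all 6 Maver-1 arrays, at 0.4 to 4.3, against 233.4 to 528.0 in Z-138. The labels give TRAF3 as deleted in Maver-1.

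**Figure D1:**
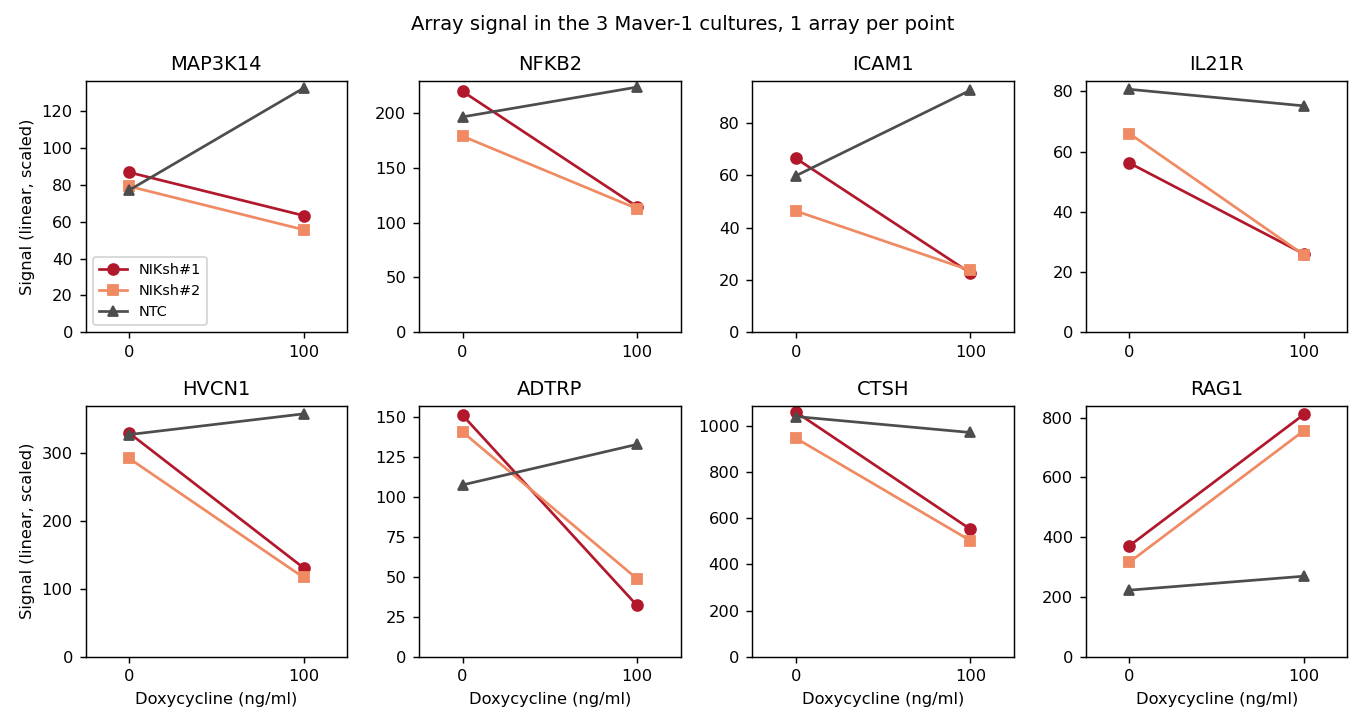
Linear array signal (vertical axes from 0, scaled units) of 8 genes without and with 100 ng/ml doxycycline in the 3 Maver-1 cultures, 1 array per point and a line joining the 2 arrays of a culture. MAP3K14, NFKB2, ICAM1, IL21R, HVCN1, ADTRP and CTSH are lower and RAG1 is higher with doxycycline in both NIKsh cultures, while NTC stays near its untreated level or, as for MAP3K14 and ICAM1, lies above it.

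The response to both hairpins was small. Limma called 0 of 11378 genes in Maver-1 NIKsh in either direction (0%), with spread shared over the 4 NIKsh pairs of both lines, and 430 genes (3.78%) had an unadjusted p under 0.05, 182 higher (1.6%) and 248 lower (2.18%). When the spread was taken from the 6 Maver-1 arrays alone, which leaves 1 residual degree of freedom, 26 genes passed the same adjusted threshold of 0.05: 20 were lower (0.176%) and 6 higher (0.0527%), and 907 genes (7.97%) had an unadjusted p under 0.05. NTC alone gave 0 calls and 104 genes (0.914%) at an unadjusted p under 0.05. With 1 pair, NTC had no spread of its own, and its test took the spread of the NIKsh pairs. Its standard errors were also larger, for HVCN1 0.26 in NTC against 0.18 in NIKsh. The 104 genes therefore cannot be set against the 430 as a measure of how much doxycycline alone did. Without one or the other Z-138 NIKsh culture the shared fit called 24 genes in Maver-1 NIKsh, 18 of them lower. Leaving out the Maver-1 NIKsh#1 or NIKsh#2 pair gave 6 and 2 calls.

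Counted without a test, 72 genes (0.633%) were at least 1.5-fold lower with doxycycline in both NIKsh cultures and 47 (0.413%) at least 1.5-fold higher, while 44 (0.387%) were that far apart in opposite directions. In a single culture the lower and higher genes past 1.5-fold came to 2.58% and 2.32% in NIKsh#1, 5.25% and 3.78% in NIKsh#2 and 1.71% and 2.31% in NTC. Of the 72, 68 (0.598% of all genes) lay below the NTC value with both hairpins. The 4 others were IL13RA1, IMPDH1, MESP2 and MIR4435-2HG, named here after their values were seen. All 47 higher genes lay above the NTC value with both hairpins. Since few genes moved past 1.5-fold in NTC, both counts follow largely from how the 72 and 47 were chosen, and they lend no support. At the limit, a log2 change of 0.585, CYC1 was just inside at -0.588 in NIKsh#1 and -0.79 in NIKsh#2, and IL27RA just outside at -0.583 and -0.84. With a pseudocount of 16, which shrinks the change of dim genes, 37 lower and 13 higher genes were past the limit, and with only the 7623 genes above a mean signal of 123 there were 21 and 8.

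Across the 11378 genes, the changes in the 2 NIKsh cultures had a Pearson correlation of 0.149 and a Spearman correlation of 0.112. NIKsh#2 and NTC correlated at 0.167 and NIKsh#1 and NTC at -0.038. Genes are not independent replicates, the cultures share the probes, the scaling and, within a line, the parent cells, and these values are descriptions. The standard deviation of the change over genes was 0.29 in NIKsh#1, 0.34 in NIKsh#2 and 0.25 in NTC.

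**Figure D2:**
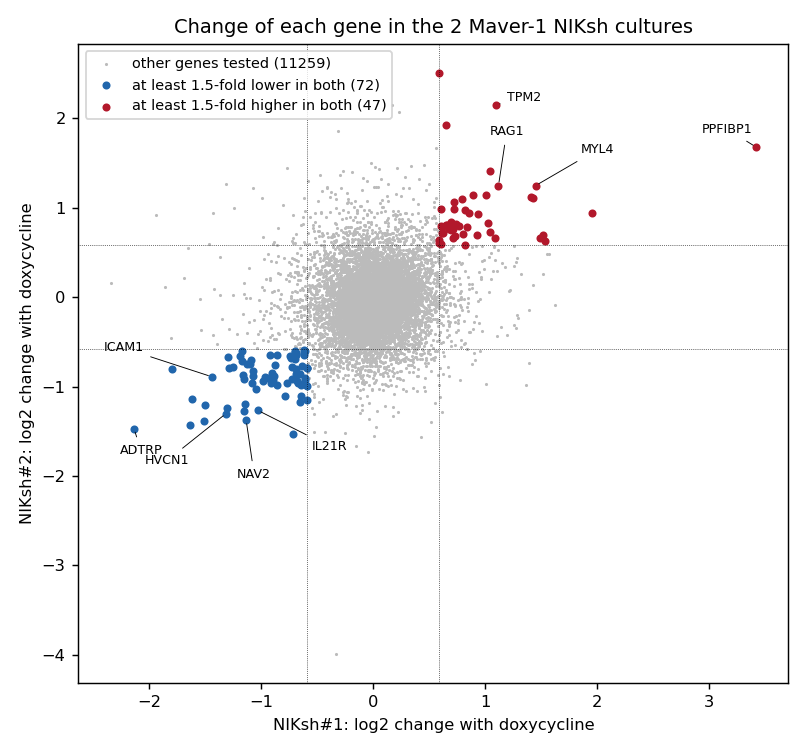
Log2 change of each of the 11378 genes with doxycycline in Maver-1 NIKsh#1 (horizontal) and NIKsh#2 (vertical), 1 point per gene, with dotted lines at 1.5-fold. Most genes form a round cloud about 0, and the 72 genes lower with both hairpins (blue) and the 47 higher (red) fill the lower left and upper right corners.

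The 15 lower genes with the smallest p among those 72 included membrane proteins (HVCN1, ADTRP, L1CAM, CELSR1, IL21R), lysosomal enzymes (CTSH, SGSH) and HLA-DMB. HVCN1, which forms a proton channel opened by voltage in B lymphocytes and other leukocytes, was at 329.1 without and 130.8 with doxycycline in NIKsh#1 and at 291.8 and 116.6 in NIKsh#2, with 326.7 and 357.2 in NTC. Both treated NIKsh arrays lay far under the other 4. Its change was -1.31 ± 0.18 and was almost equal with the 2 hairpins, at -1.31 and -1.30 (adjusted p = 0.362 in the shared fit, 0.0016 on the Maver-1 arrays alone). ADTRP, which encodes a membrane protein that hydrolyses fatty acid esters of hydroxy fatty acids, was at 151.4 and 32.2 and at 140.9 and 48.9, against 107.7 and 133.1 in NTC. Its change of -1.80 ± 0.26 was the deepest of the 15 and passed on the Maver-1 arrays alone (adjusted p = 0.0015). NAV2, a neuron navigator protein that binds the cytoskeleton, was bright in all untreated cultures, at 655.1 to 741.8. With doxycycline it was 305.0 and 283.9 in the NIKsh cultures and 716.3 in NTC, a change of -1.25 ± 0.20 that passed there too. It rested on the probe set chosen: 2 of its 3 probe sets above the limit were lower with both hairpins, and over the mean of all its probe sets, dim ones included, the change was -0.24.

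Further members of that group were also low on both treated NIKsh arrays. The long non-coding RNA LINC00926 was at 150.2 and 46.4 in NIKsh#1, 194.9 and 70.2 in NIKsh#2, and 124.5 and 143.6 in NTC. MGAT3, the glycosyltransferase that adds the bisecting N-acetylglucosamine to N-glycans, was at 159.6 and 54.2, 172.2 and 63.9, and 177.4 and 163.2. TFEC, a transcription factor of the MiT family, was at 106.4 and 32.8, and 192.3 and 85.8, with a change of -0.25 in NTC. All 3 passed on the Maver-1 arrays alone, with changes of -1.53 ± 0.26, -1.45 ± 0.25 and -1.37 ± 0.29. L1CAM, an adhesion molecule, and the uncharacterised CXorf65 also passed there, at -1.01 ± 0.22 and -1.28 ± 0.26. LINGO3, the atypical cadherin CELSR1, the lysosomal sulfamidase SGSH and the collagen gene COL1A1 did not pass in either fit, and their changes ran from -1.35 to -0.86. In NTC SGSH was lower as well, by -0.46. Over the mean of all probe sets ADTRP was -1.18, LINC00926 -1.004, MGAT3 -0.64, CELSR1 -0.54, SGSH -0.46 and COL1A1 -0.38. With a pseudocount of 16 LINGO3 was -0.85. COL1A1 was dim, at 44.4 to 46.9 untreated and 20.6 and 21.3 treated in the NIKsh cultures and 28.5 and 41.6 in NTC, with COL1A2 and COL3A1 at no more than 6.6 on any Maver-1 array.

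Beyond those 15, the Maver-1 arrays alone called 11 further lower genes, named after their values were seen. IL2RG and PLEK are described with their lists. VIM, the intermediate filament vimentin, was at 1772.5 and 1326.2 in NIKsh#1, 1711.5 and 1159.1 in NIKsh#2, and 1725.1 and 1700.7 in NTC. RUNX3, a transcription factor that acts in B cell growth, was at 663.0 and 449.1, 621.9 and 357.6, and 737.7 and 707.7. Both were lower with each hairpin and close to level in NTC, with changes of -0.49 ± 0.10 and -0.68 ± 0.21. The VIM change rested on the probe set chosen: of its 2 probe sets above the limit, 1 was lower and 1 higher with both hairpins. SORL1, a sorting receptor of endosomes, CLEC7A, the beta-glucan receptor dectin-1, EPB41L4B, the zinc finger gene ZNF341, CYC1, a subunit of the respiratory chain, NLRP7 and RPS24, a ribosomal protein, completed the list. NLRP7 moved unevenly, at -1.11 with NIKsh#1 and -0.28 with NIKsh#2, and RPS24 by only -0.32. RPS24 also had 2 probe sets above the limit, 1 lower and 1 higher with both hairpins.

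Higher genes were fewer and several were dim. RAG1, a subunit of the recombinase of antigen receptor genes, was at 371.3 and 810.6 in NIKsh#1, 316.5 and 756.3 in NIKsh#2, and 222.9 and 269.6 in NTC. Both treated NIKsh arrays lay above all others, its change was 1.18 ± 0.27, and it passed on the Maver-1 arrays alone. Its untreated NIKsh arrays also lay above both NTC arrays. MYL4, a myosin light chain, was at 135.3 and 375.3, 108.0 and 260.7, and 150.8 and 212.1, a change of 1.35 ± 0.22 with the same call. In NTC it was also above the untreated level, by 0.48. HBEGF, a growth factor that binds the EGF receptor, was at 386.1 and 627.7, 374.2 and 633.5, and 226.0 and 258.0. Its change of 0.73 ± 0.12 was tight between hairpins but did not pass in either fit (adjusted p = 0.363 and 0.0568), and its untreated NIKsh arrays already lay above both NTC arrays.

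PPFIBP1, a liprin of cell adhesions, had a change of 2.55 ± 0.39, at 5.1 and 83.7 and at 16.4 and 59.1, and passed on the Maver-1 arrays alone. It was 1.68 without NIKsh#1 and 0.59 over the mean of all its probe sets, of which 1 lay above the limit. In NTC it was at 51.6 without and 48.7 with doxycycline, so its treated NIKsh arrays came near the NTC level and only the untreated NIKsh arrays stood apart. TPM2, a tropomyosin, was at 8.7 and 22.1, 5.3 and 33.9, and 14.5 and 16.2, close to the filter on low signal. The nascent-polypeptide-complex pseudogene NACA4P, whose signal may come in part from its parent gene, and CEMIP, a hyaluronan-binding protein, also passed on the Maver-1 arrays alone, at 0.78 ± 0.15 and 1.02 ± 0.51. The standard error of CEMIP was 0.20 on the Maver-1 arrays alone, and in Z-138 its hairpins lay apart, at -0.18 and 2.45. The genes FRG1BP, PBLD, WDR76, FAM171A1, POTEKP, CETP, ZNF835, SORBS2 and LINC02256 did not pass in either fit, with changes from 0.60 to 1.44. Over the mean of all probe sets SORBS2 was -0.0948, TPM2 0.50, PBLD 0.37, FRG1BP 0.65 and WDR76 0.31. With a pseudocount of 16 TPM2 was 0.93, PBLD 0.79, SORBS2 0.70 and FAM171A1 0.61, and without NIKsh#1 SORBS2 was 0.94, CETP 0.69 and ZNF835 0.67.

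Promoter sequence was set beside the lower genes because p52 and RELB bind DNA at kB sites. The sequences are from RefSeq (GRCh38.p14) and run from 250 bases before to 50 bases after a start of each gene, the most upstream one for which a window was given. For TFEC and L1CAM that start lies inside the annotated gene, downstream of its first base. The motif searched was GGGNNNNNCC on both strands. It is loose, and 73.2% of the tested genes with such a window held it (6840 of 9343), as did 58% of the 27305 genes with a window in all. Of the 72 lower genes 45 had a window and 36 (80.0%) held the motif, against 22 of 34 (64.7%) of the higher genes and 25 of 32 (78.1%) of the NF-kB target list. These shares lie near the background, and a match is a description of letters only. The windows of ADTRP, IL21R and HLA-DMB held no match. Stretches from 4 of the 15 lower genes that held it, and from NFKB2 and ICAM1, NF-kB targets chosen after their values were seen, are printed 5′ to 3′ on the gene's strand, with the motif in capitals.
NAV2, chr11:19345011-19345080, plus strand: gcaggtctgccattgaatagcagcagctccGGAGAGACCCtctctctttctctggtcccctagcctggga
CTSH, chr15:78945115-78945215, minus strand: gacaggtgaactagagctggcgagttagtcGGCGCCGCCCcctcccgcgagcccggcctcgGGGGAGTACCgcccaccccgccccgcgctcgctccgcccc
TFEC, chr7:116030793-116030862, minus strand: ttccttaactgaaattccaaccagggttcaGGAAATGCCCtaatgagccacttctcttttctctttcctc
L1CAM, chrX:153876015-153876079, minus strand: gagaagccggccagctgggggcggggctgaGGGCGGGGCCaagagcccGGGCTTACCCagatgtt
NFKB2, chr10:102394056-102394109, plus strand: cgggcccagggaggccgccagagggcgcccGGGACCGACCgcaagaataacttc
ICAM1, chr19:10270870-10270920, plus strand: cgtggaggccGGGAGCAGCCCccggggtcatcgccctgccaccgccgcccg
The ICAM1 capitals cover 2 matches that overlap on opposite strands, the second match of L1CAM reads as the motif on both strands, and CTSH holds 2 separate matches. The matches began 240 bases before the start in ICAM1, 195 in NAV2, 139 and 108 in CTSH, 69 in TFEC, 35 and 17 in L1CAM and 24 in NFKB2.

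Among the components of the alternative pathway, both genes of its transcription factor were lower and its kinase subunit was level. NFKB2 was at 219.9 and 114.7 in NIKsh#1, 179.0 and 112.8 in NIKsh#2, and 196.6 and 223.8 in NTC. Both treated NIKsh arrays lay under the other 4, and the change was -0.79 ± 0.26 (adjusted p = 0.998 in the shared fit, 0.124 on the Maver-1 arrays alone). RELB was at 66.9 and 49.3, 50.8 and 46.1, and 54.3 and 64.4, a change of -0.28 ± 0.24 carried mainly by NIKsh#1. CHUK (0.02 ± 0.14) and the ubiquitin ligase BIRC2 (0.07 ± 0.19) were higher with NIKsh#1 and lower with NIKsh#2. None of the 5 tested genes of this list passed in either fit.

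The receptors and ligands that feed the pathway were lower with NIKsh#1 more than with NIKsh#2. Of 14 listed 10 were tested, and none passed. In both cultures 5 were lower and 1 higher, where 28.2% and 24.9% of all genes were. The median change was -0.38 (-0.49 in NIKsh#1, -0.11 in NIKsh#2, 0.36 in NTC), against a median of -0.01 over all genes. LTA, lymphotoxin alpha, was at 45.7 and 19.3, 41.7 and 23.7, and 27.7 and 43.7 in NIKsh#1, NIKsh#2 and NTC. CD40, the receptor for T cell help, was at 200.6 and 144.0, 208.6 and 164.8, and 190.6 and 198.4. TNFRSF1B, the TNF receptor that binds TRAF2, was at 219.6 and 152.3, 186.6 and 112.4, and 242.0 and 218.2. All 3 were lower with both hairpins and not in NTC to the same extent, with changes of -0.94 ± 0.42, -0.40 ± 0.26 and -0.62 ± 0.19. LTB, lymphotoxin beta, and the BAFF receptor TNFRSF13C were lower with NIKsh#1 and higher with NIKsh#2, and TNFRSF13C did so at signals of 4.9 to 29.5. TNFSF13 (APRIL) was 0.49 higher with each hairpin and 0.42 in NTC.

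NF-kB target genes were lower together more often than not. All lists here were chosen with earlier results of these data known. Their counts set against all genes are therefore descriptions and lend no support. Of 51 listed 37 were tested, some of which, such as LTA, CD40, NFKB2 and IL21R, also stand in other lists here. With both hairpins 25 were lower and 1 (IRF4) was higher, where 28.2% and 24.9% of all genes were, and 22 were lower than in NTC as well, where 18.3% were. The median change was -0.28 in NIKsh#1, -0.31 in NIKsh#2 and 0.00 in NTC. PLEK alone passed, and only on the Maver-1 arrays. PLEK, pleckstrin, a protein kinase C substrate of blood cells, was at 1287.5 and 920.6, 1335.2 and 894.0, and 1411.7 and 1373.7, a change of -0.53 ± 0.14. ICAM1, the ligand of the integrin LFA-1, was at 66.4 and 22.6, 46.3 and 23.6, and 59.8 and 92.5, so that it was lower with both hairpins (-1.16 ± 0.30) and higher in NTC (0.60). CCR7, the chemokine receptor that guides B cells to lymph nodes, was at 420.3 and 303.2, 466.7 and 264.7, and 469.1 and 459.3. CFLAR, the caspase-8 inhibitor FLIP, was at 294.3 and 212.4, 251.1 and 153.0, and 241.0 and 259.1. Both were lower on the treated NIKsh arrays than on the other arrays of their cultures and near their untreated level in NTC, with changes of -0.64 ± 0.17 and -0.58 ± 0.18. At the other end, CD83, REL, SOD2 and TNFAIP3, named after their values were seen, lay between -0.06 and 0.18 in both NIKsh cultures.

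Inhibitors that NF-kB itself induces were uneven. NFKBIE, the inhibitor I kappa B epsilon, was at 155.3 and 71.3, 161.4 and 98.2, and 148.6 and 168.9 in NIKsh#1, NIKsh#2 and NTC, a change of -0.90 ± 0.29. The deubiquitinase CYLD was -0.47 ± 0.19, TRAF1 -0.69 ± 0.36 and NFKBIA, I kappa B alpha, -0.39 ± 0.21, while NFKBIB lay within 0.11 of no change with either hairpin. Of 12 tested 6 were lower and 1 higher with both hairpins, where 28.2% and 24.9% of all genes were. None of the 12 passed in either fit. The kinases and subunits of the canonical pathway were level: 4 of 15 were lower and 6 higher with both hairpins, the median was 0.03, and RELA was 0.12 ± 0.14. NFKB1, itself an NF-kB target, was the member with the smallest p, at -0.44 ± 0.19.

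A probe set annotated to MIR146A was also at least 1.5-fold lower with both hairpins. It is named here after its values were seen, and the level of the mature miRNA was not measured. Its signal was 53 and 25.7 in NIKsh#1, 43.9 and 22.3 in NIKsh#2, and 44.6 and 43.5 in NTC, a change of -0.93 ± 0.27 that did not pass (adjusted p = 0.998). The locus is transcribed under NF-kB, and its product is known to repress the signalling proteins TRAF6 and IRAK1, so the mature sequence is shown with its seed, bases 2 to 8, in capitals (RefSeq, GRCh38.p14, chr5:160485372-160485393, plus strand).
hsa-miR-146a-5p: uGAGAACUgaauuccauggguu
TRAF6 was at 119.2 and 126.7 in NIKsh#1, 121.9 and 151.6 in NIKsh#2, and 140.2 and 124.1 in NTC. IRAK1 was at 2314.9 and 2553.2, 2138.7 and 2435.6, and 2516.9 and 2491.5. Both were slightly higher with each hairpin, at 0.20 ± 0.23 and 0.16 ± 0.11, and neither passed. A link between these values and the MIR146A signal was not tested.

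Of 18 listed genes of antigen presentation by MHC class II, 17 were tested. This list too was chosen with earlier results known, so its counts are descriptions. With both hairpins 14 transcripts were lower and 0 higher, where 28.2% and 24.9% of all genes were, and 12 of these lay below NTC too, where 18.3% of all genes did. The median was -0.33 in NIKsh#1, -0.23 in NIKsh#2 and 0.08 in NTC. CTSH, the lysosomal protease cathepsin H, was at 1060.4 and 552.8, 947.1 and 503.3, and 1041.1 and 972.0, and was the only member that passed, on the Maver-1 arrays alone (-0.92 ± 0.19). Its changes with the 2 hairpins, -0.94 and -0.91, were almost the same. HLA-DMB, a chain of the peptide editor HLA-DM, was at 795.1 and 520.8, 790.6 and 521.7, and 774.9 and 774.1. The 4 arrays without a NIK hairpin in action lay between 774.1 and 795.1 and the treated NIKsh arrays near 521, yet the change of -0.60 ± 0.14 passed in neither fit (adjusted p = 0.850 and 0.0568).

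The other members moved less. CIITA, the master activator of class II genes, was at 413.7 and 326.3, 418.4 and 288.6, and 348.5 and 441.4, a change of -0.44 ± 0.19. CD74, the invariant chain, was at 3933.8 and 3276.7, 4178.9 and 3480.0, and 4187.2 and 4123.1, a change of -0.26 ± 0.09 that was -0.26 with each hairpin. Both were lower in the NIKsh pairs alone, and CIITA was higher in NTC. HLA-DOA (-0.37 ± 0.14) and HLA-DMA (-0.32 ± 0.12) were lower with both hairpins, and HLA-DRA (-0.10 ± 0.07) and HLA-DPA1 (-0.16 ± 0.09) were close to level. HLA-DR, DQ and DP probe sets can share signal between near-identical genes. Class I and immunoproteasome genes went the same way by less, at a median of -0.14. With both hairpins 12 of 18 were lower and 1 higher, where 28.2% and 24.9% of all genes were. HLA-B was -0.21 ± 0.13 and B2M -0.01 ± 0.05.

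Cytokine receptors held the most members past 1.5-fold after the NF-kB targets. Of 18 tested 11 were lower and 1 (TNFRSF21) higher with both hairpins, where 28.2% and 24.9% of all genes were, and the median was -0.21 (0.01 in NTC). At least 1.5-fold lower were 4 (0.633% of all genes were), of which IL21R also counts among the NF-kB targets and IL13RA1 was that much lower in NTC too. IL21R was at 56.2 and 26, 66.0 and 25.7, and 80.7 and 75.2 in NIKsh#1, NIKsh#2 and NTC. IL2RG, the common gamma chain that IL21R and IL4R signal through, was at 1579.1 and 982.3, 1832.7 and 1240.4, and 1506.9 and 1622.8, and passed on the Maver-1 arrays alone (-0.62 ± 0.13). IL4R was at 179.8 and 128.0, 179.7 and 77.9, and 220.0 and 195.2. These 3 chains of receptors for T cell cytokines were lower with both hairpins, IL21R by -1.15 ± 0.23 and IL4R by -0.83 ± 0.27, the latter more with NIKsh#2. CSF2RB, the common beta chain, was -0.81 ± 0.21 and IL10RA -0.76 ± 0.29. IL13RA1 was -0.92 ± 0.38, with -0.67 in NTC. The interferon receptor chains IFNAR1 and IFNGR1 were near level, at 0.08 ± 0.19 and -0.07 ± 0.18.

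**Figure D3:**
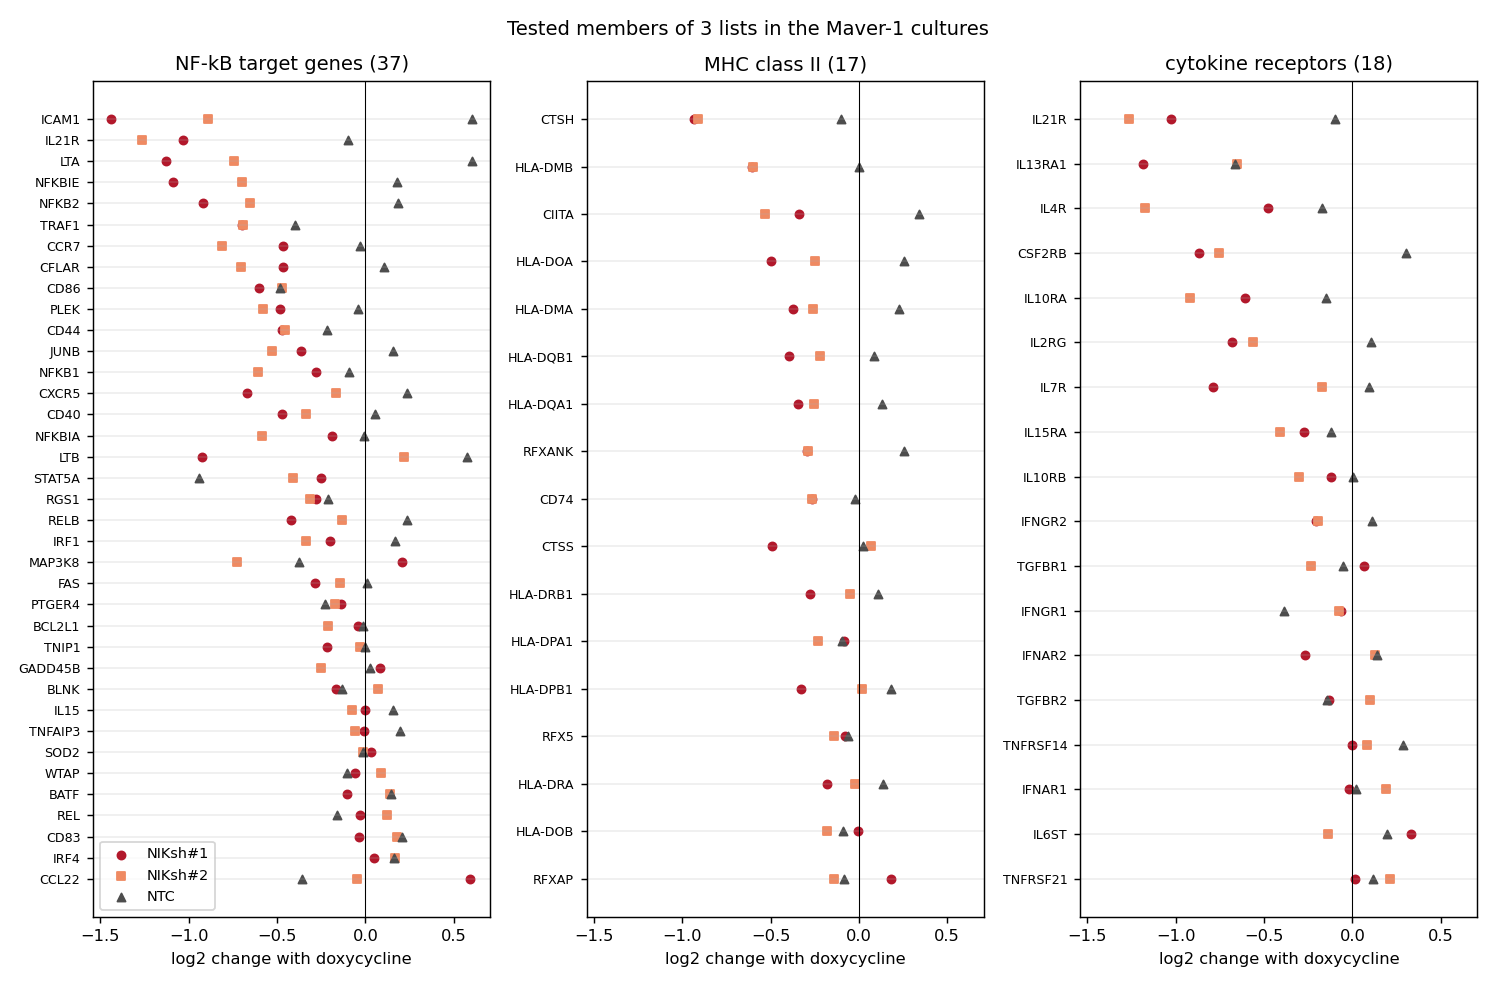
Log2 change with doxycycline of each tested member of 3 lists (37 NF-kB target genes, 17 MHC class II genes, 18 cytokine receptors) in Maver-1 NIKsh#1, NIKsh#2 and NTC, 1 point per culture, sorted by the NIKsh mean. In the upper part of each panel the NIKsh points lie left of 0 and mostly left of the NTC triangle, and in the lower part they lie around 0.

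Adhesion genes followed in part. Of 18 costimulation and adhesion genes 10 were lower and 2 higher with both hairpins, where 28.2% and 24.9% of all genes were. None of the 18 passed in either fit. ITGAL, the alpha chain of LFA-1, was at 70.5 and 42.6, 70.7 and 39.2, and 66.5 and 74.5, a change of -0.75 ± 0.27 beside that of its ligand ICAM1. ITGB2, the beta chain of LFA-1, was -0.01 with NIKsh#1, -1.04 with NIKsh#2 and -0.65 in NTC, named after its values were seen. ICAM3, a further LFA-1 ligand, was -0.52 ± 0.16, and CD44, the hyaluronan receptor, -0.46 ± 0.24, but ICAM2 was 0.23 ± 0.15, named after its value was seen. Of 10 chemokine and homing genes tested 4 were lower and 1 higher, CCL5 was at 33.0 and 10.7, 23.7 and 15.5, and 33.5 and 28.3, and CXCR4 was -0.03 ± 0.05. Of 11 Toll-like receptor genes 3 were lower and 5 higher. TLR10, a receptor of B cells, was at 135.0 and 213.6, 194.9 and 342.2, and 142.7 and 142.8, a change of 0.73 ± 0.23 that did not pass.

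**Figure D4:**
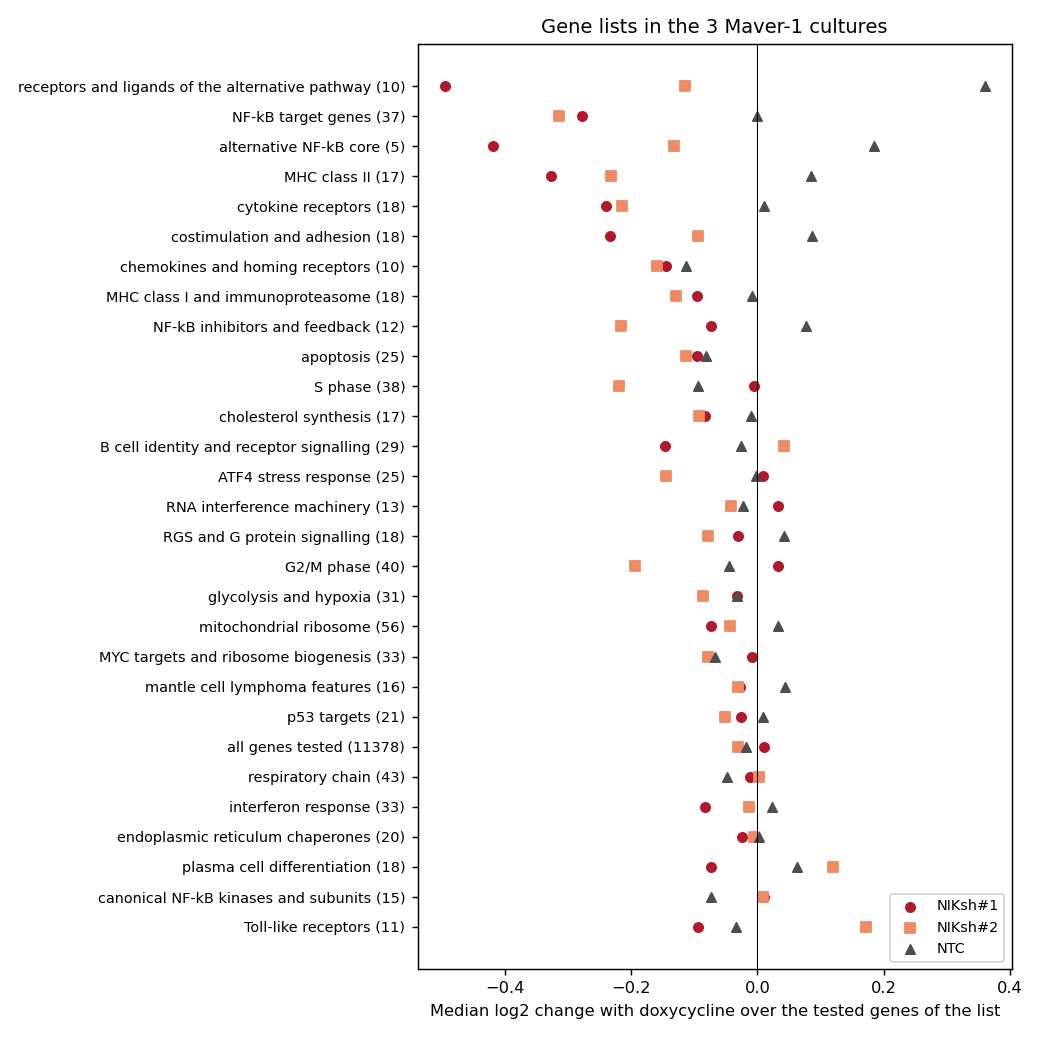
Median log2 change with doxycycline over the tested genes of each of 28 lists and of all 11378 genes (number tested in brackets), with 1 point per Maver-1 culture. The receptors and ligands, the alternative pathway core, NF-kB targets, MHC class II and cytokine receptors have the lowest NIKsh medians and lie left of 0 and of NTC with both hairpins. Costimulation and adhesion, NF-kB inhibitors, MHC class I, apoptosis and several others do so by less, and most lists lie within 0.2 of 0 in all 3 cultures.

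Most lists outside immune signalling had medians near that of all genes. Of all genes, 28.2% were lower and 24.9% higher with both hairpins. For B cell identity and receptor signalling, 10 of 29 tested genes were lower and 6 higher with both hairpins, at medians of -0.15 and 0.04. Within it the transcription factors PAX5 (0.49 ± 0.21) and EBF1 (0.29 ± 0.11) were higher with both hairpins and the adaptor BANK1 (-0.58 ± 0.24) was lower, none past the test. Of the plasma cell genes 5 of 18 were lower and 4 higher, and SDC1, the plasma cell marker CD138, was at 384.3 and 530.0, 277.4 and 330.5, and 262.0 and 314.0, higher in NTC too. The mantle cell lymphoma features had a median of -0.04, and CCND1 was at 2814.2 and 2599.8 in NIKsh#1, 2808.5 and 3030.6 in NIKsh#2, and 2804.2 and 2894.6 in NTC, lower in one and higher in the others.

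Proliferation lists differed between hairpins. The S phase median was -0.01 in NIKsh#1, -0.22 in NIKsh#2 and -0.09 in NTC, and the G2/M median was 0.03, -0.19 and -0.05. With both hairpins 18 of 38 S phase genes and 16 of 40 G2/M genes were lower, where 28.2% of all genes were. Of them, 7 and 5 lay below NTC too, where 18.3% of all genes did. Of 25 apoptosis genes, 11 were lower and 1 higher with both hairpins, where 28.2% and 24.9% of all genes were, and none passed. The 11 held genes that block cell death, such as MCL1 (-0.37 ± 0.14), BCL2 (-0.17 ± 0.07) and CFLAR, and genes that promote it, BAX, BCL2L11, FAS, FADD, CASP9 and CASP10. These 6 were named after their values were seen. The interferon response (median -0.01), endoplasmic reticulum chaperones (0.00), respiratory chain (-0.01), p53 targets (-0.04), MYC targets (-0.05), mitochondrial ribosome (-0.06), glycolysis and hypoxia (-0.06), the ATF4 stress response (-0.07), RGS and G protein genes (-0.06) and RNA interference machinery (-0.07) lay near it. Cholesterol synthesis had a median of -0.11 (-0.01 in NTC), with 10 of 17 genes lower and 0 higher with both hairpins and 7 of the 10 below NTC, and none passed in either fit.

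Set against NTC, the 1 control pair, no gene's response passed. Limma called 0 of 11378 genes (0%) in NIKsh minus NTC, 151 (1.33%) had an unadjusted p under 0.05, and the fit on the Maver-1 arrays also called 0, with 334 at an unadjusted p under 0.05. Below NTC, ADTRP (-2.10 ± 0.46), HVCN1 (-1.43 ± 0.32), NAV2 (-1.38 ± 0.34) and LINC00926 (-1.74 ± 0.45) led among genes 1.5-fold apart from NTC with both hairpins, and their NTC changes were only 0.13 to 0.30. IGLL5, an immunoglobulin lambda-like gene, and CHMP7 owed much of their difference to NTC. IGLL5 was at 91.2 and 71.7 in NIKsh#1, 63.7 and 1.2 in NIKsh#2, and 8.7 and 85.8 in NTC. Above NTC, COLCA1, SKOR1-AS1, MREG, COX17 and SIK1 were lower with doxycycline in NTC, by -2.08 to -0.93, and in the NIKsh cultures COLCA1 and MREG were level, at -0.13 ± 0.12 and -0.01 ± 0.11.

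Compared with Z-138, the Maver-1 response differed in 8 genes, 3 higher (0.0264%) and 5 lower (0.0439%) in Maver-1 minus Z-138, in limma's test of the difference, where 955 genes (8.39%) had an unadjusted p under 0.05. For each of them the Z-138 NIKsh cultures lay 1.635 or more from no change on the log2 scale, while the Maver-1 NIKsh cultures lay between -0.76 and 0.28. The 3′ to 5′ ratio of ACTB was 2.86 without and 4.62 with doxycycline in Z-138 NIKsh#1, 2.92 and 5.09 in Z-138 NIKsh#2, and 2.33 and 6.34 in Z-138 NTC, higher with doxycycline in all 3, while in Maver-1 it was lower in NTC and NIKsh#1 and slightly higher in NIKsh#2. Its part in the difference between the lines was not tested. In Z-138 the MAP3K14 signal was 55.2 without and 33.3 with doxycycline in NIKsh#1. It was 52.0 and 49.2 in NIKsh#2, hardly lower, and 46.4 and 55.4 in NTC. The part of this uneven target level in the difference between the lines was not tested either. RGS2, an inhibitor of G protein signalling, was at 1286.5 and 1237.6 in NIKsh#1 and 1294.2 and 1231.5 in NIKsh#2 of Maver-1, while in Z-138 it was at 555.8 and 2032.8, and 672.9 and 2292.4. Its difference was -1.88 ± 0.14 (adjusted p = 0.00518). ELL2, an elongation factor of plasma cells, was at 552.7 and 485.7, and 544.4 and 321.1 in Maver-1, against 388.8 and 66.7, and 359.8 and 47.6 in Z-138 (2.20 ± 0.28, adjusted p = 0.0401). PLEK was lower in both lines, but less in Maver-1, by a difference of 1.503 ± 0.19 (adjusted p = 0.0401). AFF3, KLHL14 and NIBAN3, genes of B cells, were bright and level in untreated and treated Maver-1, at 863.1 or more on every NIKsh array, and dim and higher with doxycycline in Z-138 NIKsh. In the Z-138 NTC culture these 3 went the opposite way, by -1.11 to -2.21, whereas the Maver-1 NTC stayed within 0.19 of no change. ELL2, ENPP2 and PLEK, lower in Z-138 NIKsh, were also opposite in Z-138 NTC, at 0.99, 0.89 and 0.45. RGS2 and RGS1 were higher in Z-138 NTC too, at 0.36 and 0.62.

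**Figure D5:**
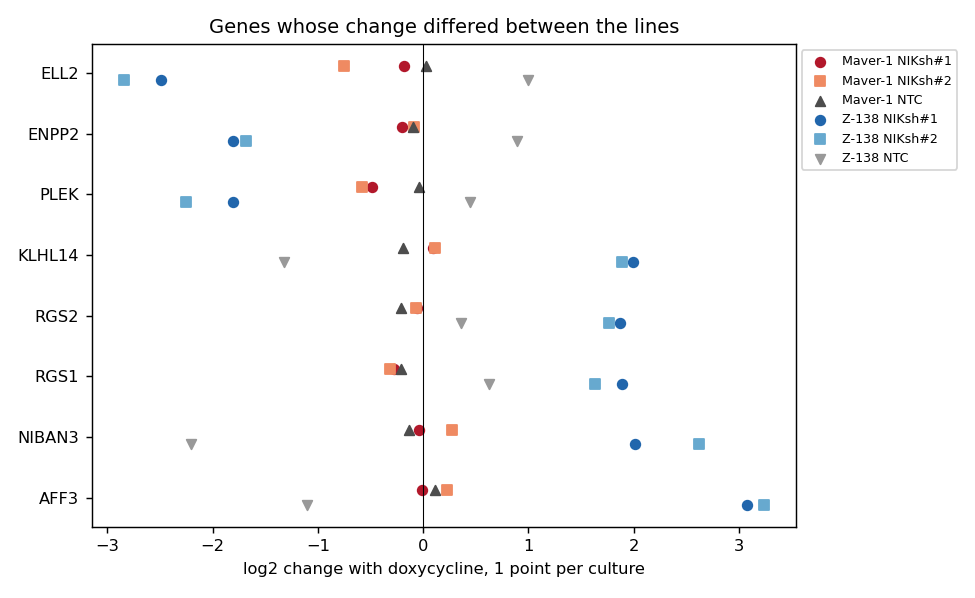
Log2 change with doxycycline of the 8 genes whose change differed between Maver-1 NIKsh and Z-138 NIKsh (adjusted p under 0.05), 1 point per culture, NTC included. The Maver-1 points lie between -0.76 and 0.28, and every Z-138 NIKsh point lies at least 1.635 from 0.

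The number of such genes rests on the cultures that enter. It was 295 without Z-138 NIKsh#1, 57 without Z-138 NIKsh#2, and 32 and 52 without the first or the second Maver-1 hairpin. With the mean of all probe sets of a gene, 1 remained. AQP3, ABCG1, UNC13C and ATP1B1 came next and did not pass. In the direction of the Maver-1 response the lines overlapped in part. Of the 72 genes lower in Maver-1, 37 (51.4%) were also lower with both Z-138 hairpins, where 25.8% of all genes were, and 19 were at least 1.5-fold lower there. These 19 were 26.4% of the Maver-1 genes and 8.92% of the 213 Z-138 genes past that limit. Of all genes, 1.87% were that much lower in Z-138 and 0.633% in Maver-1. Of the 47 higher genes 24 (51.1%) were higher in Z-138 too, where 31.5% of all genes were. Past 1.5-fold were 8, 17.0% of the Maver-1 and 2.57% of the 311 Z-138 genes. Of all genes, 2.73% were that much higher in Z-138 and 0.413% in Maver-1. LINC00926, lower in Maver-1, was at 4.7 to 9.5 on the Z-138 NIKsh arrays, under the 12.55 limit, so that a lower level there could not be seen.

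The hairpins were at least 1.5-fold apart in opposite directions for 44 genes (0.387%), beside 72 lower (0.633%) and 47 higher (0.413%) with both. FOXN3-AS3 and FNTB, the beta subunit of farnesyltransferase, were the only genes at least 2-fold apart in opposite directions. FNTB was at 27.0 and 11.3 in NIKsh#1 and 12 and 32.0 in NIKsh#2, and FOXN3-AS3 at 17.1 and 5.1, and 11.6 and 32.0. Both were dim, near the filter on low signal. The standard deviation over genes of the difference between the hairpins was 0.41 in Maver-1 and 0.55 in Z-138.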

How the data were processed

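RNA from 12 cultures was amplified (NuGEN Ovation), labelled with biotin and read on Affymetrix arrays, per the labels' protocols. The authors deposited 1 linear signal intensity per probe set, made with MAS5 per the submitters' processing notes, scaled to a trimmed mean of 150.02 on every array. Array medians ran from 10.6 to 14.1. The number of arrays limits the precision.

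Signals were taken to log2(signal + 3). Of 54675 probe sets, the platform annotation, updated through RefSeq, pairs 41091 with a single symbol and 1801 with several, and 11777 are unnamed here. Each gene was read from its probe set of highest mean log2 signal. A mean of at least 12.55, the middle of the 12 array medians, over the 6 Maver-1 arrays was required. Limma 3.58.1 (R 4.3.3) fitted all 12 arrays with culture as a fixed block, a doxycycline effect per line and hairpin kind (2 residual degrees of freedom), an intensity trend, two-sided moderated tests and Benjamini-Hochberg adjustment at 0.05. The fit was also run on simulated data with planted changes larger than most seen here. That run cannot show whether changes near 1.5-fold would be called. Python 3.11.15 with pandas 2.3.3 and matplotlib 3.10.9 gave the tables and plots.

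The labels' protocols give cells of each hairpin line plated in the presence or absence of doxycycline, and the 2 arrays of a hairpin were treated as a pair. The deviations of paired NIKsh arrays from their group means correlated across genes at 0.213 in Maver-1 and -0.028 in Z-138.

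Named are the 15 higher and 15 lower genes (passing, then filled by smallest p among those 1.5-fold apart with both hairpins), 6 each way per difference, genes 2-fold opposite between hairpins, the pathway's components and up to 6 members per list by smallest p. The genes, lists and tests were chosen with earlier results of these data known. Pseudocounts, filters, quantile normalization, probe set means, the block, the arrays fitted and left-out cultures were varied.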

Additional observations from a re-analysis of the deposited data

Results flagged for a closer look

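The change with doxycycline differed between Maver-1 NIKsh and Z-138 NIKsh in limma's test of the difference (Maver-1 minus Z-138, log2) for RGS2 (-1.88), AFF3 (-3.04), RGS1 (-2.06), NIBAN3 (-2.20), KLHL14 (-1.83), ENPP2 (1.60), ELL2 (2.20) and PLEK (1.503), 8 of 11378 genes. No group held enough arrays for a test of single arrays that stand apart.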

How the results depend on the processing

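Maver-1 NIKsh gave 0 calls with a pseudocount of 1 or 16, each filter, quantile normalization, the mean of all probe sets, no replicate block (0 calls, 389 genes at an unadjusted p under 0.05) and culture as a random block. It gave 26 with the Maver-1 arrays only. Leaving out a culture gave 2 to 24 calls. NIKsh minus NTC gave 0 calls under the same alternatives, and 0 to 4 with a culture left out. The difference from Z-138 gave 8 calls, 14 with the filter over all 12 arrays, 1 with the mean of all probe sets, 7 with no replicate block, and 32 to 295 with a culture left out. Of 119 genes past 1.5-fold with both hairpins there were 50 with a pseudocount of 16, 29 with the filter at the 75th percentile, 560 with no filter on low signal (325 higher, 235 lower) and 69 with the mean of all probe sets. The MAP3K14 change ran from -0.51 to -0.39 and was not called, and at the 75th percentile it was filtered out. Of 403 values of the 30 named genes under 14 alternatives, 402 kept their sign, and SORBS2 was -0.0948 with the mean of all probe sets. Of 24 lists with a negative median, 18 stayed negative under all alternatives other than leaving out a Maver-1 hairpin. The causes were not tested, apart from fewer genes under a stricter filter. With 1 residual degree of freedom, the fit on the Maver-1 arrays only and the fits without a culture rest on the spread pooled over genes.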

Other observations

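Probe sets with no symbol or several were outside the tests. Of 4938 such probe sets above the filter, 15 (0.304%) were at least 1.5-fold lower and 39 (0.79%) at least 1.5-fold higher with both hairpins, and 81 were that far apart in opposite directions. Of the 15, 13 lay below NTC, and of the 39, 32 lay above it.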
